A study of Mus musculus with 5 samples.

Results

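The visual cycle is the set of reactions that turns the spent chromophore of the photoreceptors, all-trans-retinal, back into 11-cis-retinal. Of its genes, 10 of the 33636 in the table of gene counts, were examined in the mouse retina after form deprivation. They were chosen by symbol, and each symbol had a single entry. Rpe65, Lrat, Rdh5 and Rgr act in the retinal pigment epithelium (RPE), and Rdh8, Rdh12 and Abca4 in the photoreceptors. Rlbp1, Rdh10 and Rdh11 are found in more than one of these cell types or in the Müller glia. All 10 passed the filter on low counts.

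Retinal RNA of wild-type male C57BL6/J mice was collected at postnatal day 42. The FDM (form-deprivation myopia) libraries, 2 in all, came from right eyes that had worn a diffuser goggle since postnatal day 28, for 2 weeks, and the 3 Control libraries from the uncovered left eyes of the same animals, so the goggled animals are their own controls. The study dropped another FDM library because its read duplication lay over 2 SD away from the study's mean. Those that remain are called FDM 1 and FDM 3 here, as in the count table (the sample label numbers the latter 2). At collection the refractive error in diopters was 0.976 and 0.2745 in the FDM eyes and 2.4455, 3.1505 and 2.465 in Control 1, 2 and 3. Whole retina is a mixture of cells, in which fewer cells of a type and less RNA per cell cannot be told apart.

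Light converts 11-cis-retinal, bound to an opsin, to the all-trans form. In the photoreceptor outer segment ABCA4 moves retinal that is bound to lipid across the disc membrane, and retinol dehydrogenases such as RDH8 reduce it to retinol. In the RPE, LRAT joins the retinol to a fatty acid, RPE65 isomerizes the ester to 11-cis-retinol, RDH5 oxidizes this to 11-cis-retinal, and CRALBP, the product of Rlbp1, carries it. RPE65 is the defining enzyme of this layer, which lies against the retina but is a separate epithelium.

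The stretches of 250 bases before the start of transcription (RefSeq, GRCm38.p6) are shown for the members in which they hold TAATCC, read on either strand, a core sequence recognized by OTX2 in the RPE and by CRX in photoreceptors. Capitals mark TAATCC, its reverse complement GGATTA, and in Rpe65 also CACATG, the reverse complement of CATGTG, a core sequence recognized by MITF. The regions are chr3:159598931-159599180 on the plus strand for Rpe65, chr14:37049015-37049264 on the minus strand for Rgr and chr3:122044210-122044459 on the plus strand for Abca4.
Rpe65: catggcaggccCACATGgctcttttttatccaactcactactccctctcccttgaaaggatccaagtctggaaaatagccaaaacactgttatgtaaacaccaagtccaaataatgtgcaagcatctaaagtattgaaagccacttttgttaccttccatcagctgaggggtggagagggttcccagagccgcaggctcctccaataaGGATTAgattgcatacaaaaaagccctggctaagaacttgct
Rgr: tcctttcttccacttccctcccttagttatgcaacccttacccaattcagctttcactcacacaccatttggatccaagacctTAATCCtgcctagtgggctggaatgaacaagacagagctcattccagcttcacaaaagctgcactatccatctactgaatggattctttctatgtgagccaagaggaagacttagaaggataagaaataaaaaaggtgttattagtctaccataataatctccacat
Abca4: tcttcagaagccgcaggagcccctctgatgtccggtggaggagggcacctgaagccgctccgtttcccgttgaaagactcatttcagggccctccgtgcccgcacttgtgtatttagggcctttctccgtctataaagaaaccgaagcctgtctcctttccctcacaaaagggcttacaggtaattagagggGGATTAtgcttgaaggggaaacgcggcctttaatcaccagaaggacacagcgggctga
The first base of the match lay 42 bases before the start in Rpe65, 167 in Rgr and 58 in Abca4, so that 2 RPE members and a photoreceptor member held it. Of the 9 members with a promoter in this table (all but Rdh10), 3 held TAATCC, against 6.25% of the 32851 promoters. CATGTG was found in Rpe65 and Rlbp1 (12.3% of all promoters), and CACGTG in 1 of 2 Rdh11 promoters (6.02% of all). A match is a description of the letters and not a bound site.

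All 4 RPE members were lower in the FDM group, between 2.09-fold for Rdh5 and 4.03-fold for Lrat, while the group means of the 3 photoreceptor members differed by at most 1.11-fold. The low level was shared by a control. For each RPE member Control 1 lay close to FDM 1 and FDM 3, and Control 2 and Control 3 lay well above all of them. The RPE members passed an unadjusted p of 0.05, the threshold of the study, in edgeR's quasi-likelihood test on the estimated counts, and none passed after adjustment over all genes. Levels are given as CPM, that is, counts relative to library size after correction for composition (TMM).

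**Figure D1:**
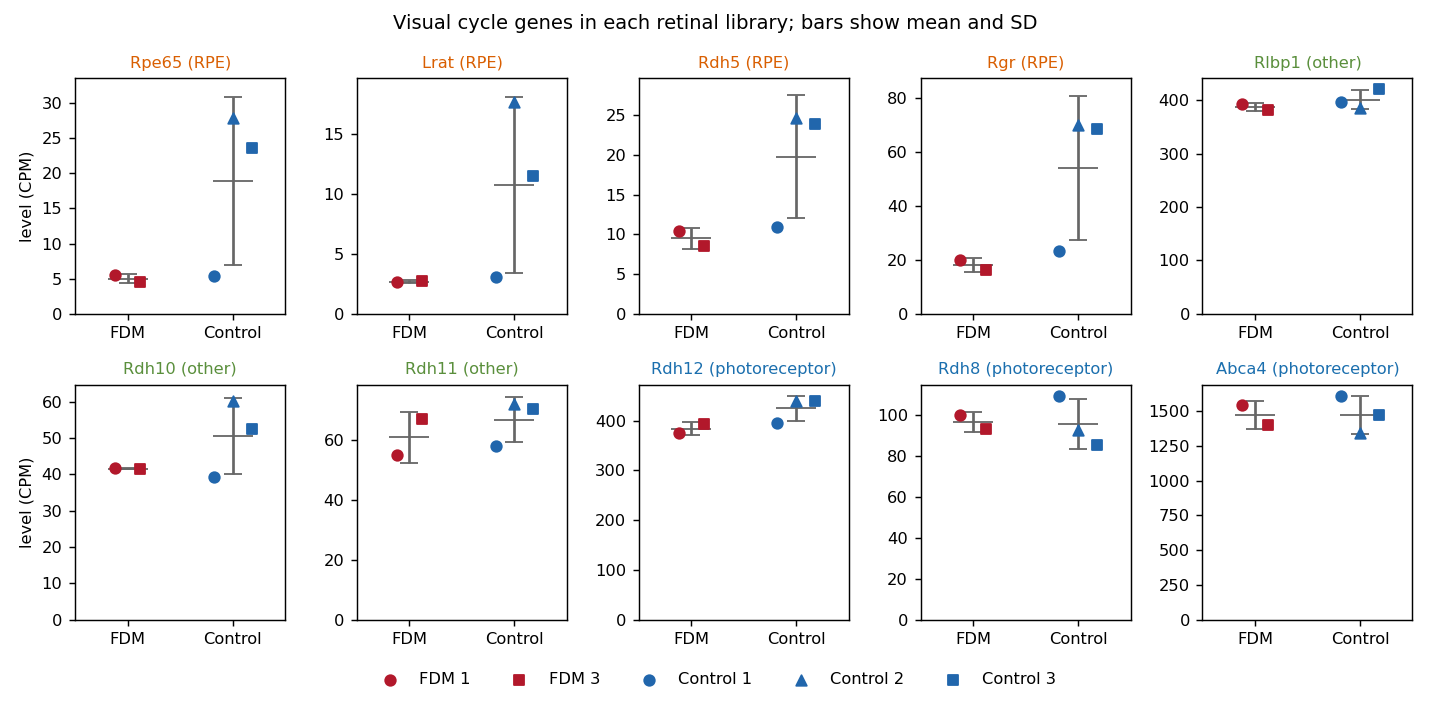
Level of each visual cycle gene in each library, in CPM on a linear axis that starts at 0, with FDM libraries in red, Control libraries in blue, and bars for the mean and SD of each group (n = 2 and n = 3). In the RPE panels Control 1 sits beside the FDM libraries and Control 2 and Control 3 sit above, as for Rpe65 at 5.36 against 27.9 and 23.7 CPM, and in the photoreceptor panels the libraries lie close together.

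Rpe65 lies on chromosome 3 (GRCm38, 159599175 to 159625321) and encodes the isomerase of the cycle. It had 238 and 217 estimated counts in FDM 1 and FDM 3 against 214, 1589 and 1123 in Controls 1 to 3. The groups overlapped, since Control 1 at 5.36 CPM lay between FDM 3 at 4.51 and FDM 1 at 5.49. The mean level was 5.0 ± 0.692 CPM in FDM (SD, n = 2) and 19.0 ± 12.0 CPM in Control (SD, n = 3), and the log2 fold change was -1.93 (SE 0.62, 95% interval -3.38 to -0.48, unadjusted p = 0.016, adjusted p = 1.0 from edgeR).

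Lrat (chromosome 3, 82892579 to 82903973), which encodes the enzyme that makes the retinyl esters used by RPE65, had 113 and 132 estimated counts in FDM 1 and FDM 3 against 121, 1006 and 546 in Controls 1 to 3. Both FDM libraries were below every control, but Control 1 at 3.03 CPM was only just above FDM 3 at 2.75. The level was 2.68 ± 0.0975 CPM in FDM (SD, n = 2) and 10.7 ± 7.34 in Control (SD, n = 3). Its log2 fold change of -2.01 was the most negative among the members (SE 0.64, 95% interval -3.51 to -0.51, unadjusted p = 0.0156, adjusted p = 1.0 from edgeR).

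Rdh5 (chromosome 10, 128913593 to 128922888) encodes the 11-cis-retinol dehydrogenase of the RPE. It had 451 and 412 estimated counts in FDM 1 and FDM 3 against 433, 1401 and 1135 in Controls 1 to 3. In CPM the FDM libraries stood below all controls, with FDM 1 at 10.4 and Control 1 at 10.8. The change was the smallest of the RPE members, with 9.49 ± 1.30 CPM in FDM (SD, n = 2), 19.8 ± 7.74 CPM in Control (SD, n = 3) and a log2 fold change of -1.06 (SE 0.34, 95% interval -1.85 to -0.28, unadjusted p = 0.015, adjusted p = 1.0 from edgeR). The annotation of Rdh5 shares 720 of 2809 exon bases with its neighbour Bloc1s1, whose reads could be split with it. Bloc1s1 itself had a log2 fold change of -0.02 (unadjusted p = 0.836 from edgeR).

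Rgr (chromosome 14, 37034909 to 37048964) encodes an opsin of intracellular membranes that binds all-trans-retinal and is found in the RPE and in Müller glia. It had 859 and 780 estimated counts in FDM 1 and FDM 3 against 930, 3991 and 3252 in Controls 1 to 3. The FDM libraries, at 19.8 and 16.2 CPM, were below Control 1 at 23.3 and far below Control 2 at 70.0 and Control 3 at 68.5. The log2 fold change was -1.58 (SE 0.44, 95% interval -2.62 to -0.55, unadjusted p = 0.0083, adjusted p = 1.0 from edgeR), the smallest p among the members.

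Over all genes, 1.61% of the 17432 tested had an unadjusted p under 0.05, with 1.16% lower and 0.453% higher in FDM. None (0) of these 281 genes passed adjustment in edgeR, and DESeq2's Wald test called 172 genes, 3 of them after adjustment, none of the 10 members among these (adjusted p = 1 for each). Against that background all 4 RPE members were called, and their median log2 fold change was -1.76, where the median of all genes tested was -0.01 and the middle 90% ran from -0.37 to 0.25. Both FDM libraries lay below all controls for 3 of the 4 RPE members, against 6.67% of all genes. The other arrangement, both FDM libraries above all controls, was found for none of the 10 members and for 3.97% of genes.

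**Figure D2:**
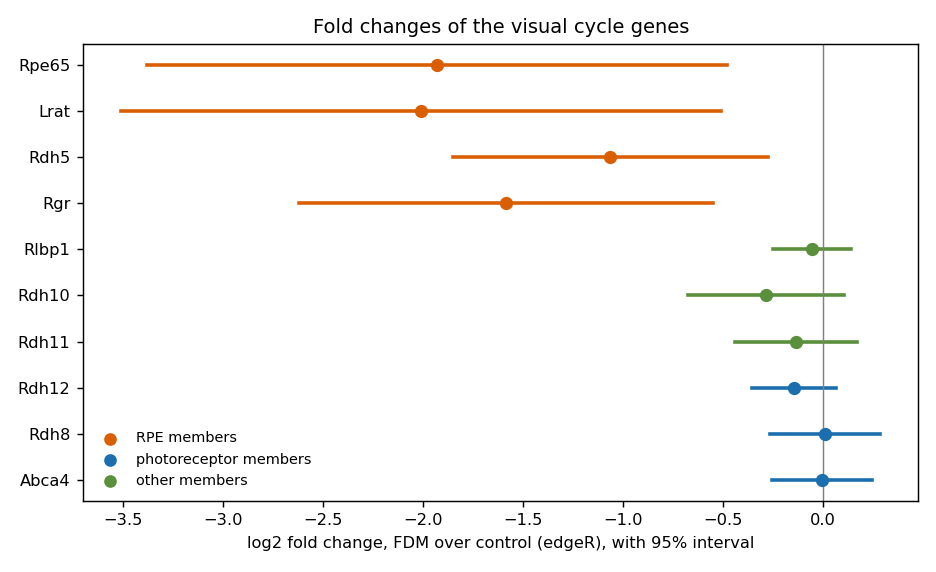
Log2 fold change of FDM over Control from edgeR for each member (points) with its 95% interval (lines), coloured by the cell type in which the gene acts. The 4 RPE members lie between -2.01 and -1.06 with intervals below 0, and the intervals of the other 6 cross 0.

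None of the photoreceptor members was called (0 of 3), where 1.61% of all genes tested were, a share at which 0 of 3 says little. Abca4 (chromosome 3, 122044443 to 122180123), the disc membrane transporter, had 66779 and 67281 estimated counts in FDM 1 and FDM 3 against 64322, 76352 and 69854 in Controls 1 to 3. Its groups overlapped, with Control 1 the highest library at 1611 CPM and Control 2 the lowest at 1339. The log2 fold change was -0.004 (SE 0.11, unadjusted p = 0.971, adjusted p = 1.0 from edgeR), and the interval allowed a fold between 0.838 and 1.19.

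Rdh8 (chromosome 9, 20818503 to 20826117), the outer segment enzyme that reduces all-trans-retinal, had 4347 and 4485 estimated counts in FDM 1 and FDM 3 against 4369, 5290 and 4065 in Controls 1 to 3. FDM 1 and FDM 3, at 100.3 and 93.3 CPM, fell inside the range of the controls, from 85.6 to 109.4. Its log2 fold change was 0.01 (SE 0.12, unadjusted p = 0.918, adjusted p = 1.0 from edgeR), with a fold between 0.833 and 1.22 in the interval.

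Rdh12 (chromosome 12, 79208914 to 79222665) encodes a dehydrogenase of the inner segments that acts on retinal and other aldehydes. It had 16226 and 18916 estimated counts in FDM 1 and FDM 3 against 15751, 25078 and 20822 in Controls 1 to 3. Both FDM libraries, at 374.3 and 393.3 CPM, were below all controls, of which Control 1 at 394.5 was nearest and Control 2 and Control 3, at 439.9 and 438.5, were higher. The difference was small, with a log2 fold change of -0.14 (SE 0.09, 95% interval -0.35 to 0.06, unadjusted p = 0.145, adjusted p = 1.0 from edgeR).

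The members of mixed cell type were not called either (0 of 3, against 1.61% of all genes). Rlbp1 (chromosome 7, 79374870 to 79387048), whose product binds 11-cis-retinoids in the RPE and in Müller glia, had 17004 and 18341 estimated counts in FDM 1 and FDM 3 against 15828, 21997 and 20026 in Controls 1 to 3. In CPM it differed by no more than 1.09-fold between controls, and its log2 fold change was -0.05 (SE 0.08, 95% interval -0.25 to 0.14, unadjusted p = 0.539, adjusted p = 1.0 from edgeR). This carrier, which the RPE shares with Müller glia, was far more abundant per length than Rgr, at 133.9 against 8.27 CPM per kilobase.

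Rdh10 (chromosome 1, 16105774 to 16133734), a retinol dehydrogenase that also starts the synthesis of retinoic acid, had 1808 and 1998 estimated counts in FDM 1 and FDM 3 against 1571, 3427 and 2493 in Controls 1 to 3. Control 1 was the lowest library at 39.4 CPM, the FDM libraries followed at 41.7 and 41.5, and Control 2 and Control 3 stood at 60.1 and 52.5. Control 2 and Control 3 were again the upper libraries, by a smaller ratio than for the RPE members. The log2 fold change was -0.28 (SE 0.17, 95% interval -0.68 to 0.11, unadjusted p = 0.13, adjusted p = 1.0 from edgeR), and without Control 1 it was -0.43 (unadjusted p = 0.00252, adjusted p = 0.423 from edgeR).

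Rdh11 (chromosome 12, 79174337 to 79192293), a broadly expressed retinol dehydrogenase, lies 16620 bases from Rdh12. It had 2371 and 3207 estimated counts in FDM 1 and FDM 3 against 2313, 4097 and 3326 in Controls 1 to 3. FDM 1 and Control 1, at 54.7 and 57.9 CPM, were below the other libraries, and the log2 fold change was -0.13 (SE 0.13, 95% interval -0.44 to 0.17, unadjusted p = 0.335, adjusted p = 1.0 from edgeR). Per 1000 counts of Rdh12 there were between 146.1 and 169.5 of Rdh11 in the 5 libraries. The dehydrogenase genes are related in sequence, and reads could be split between them.

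Set side by side, the median log2 fold change of the RPE members minus that of the photoreceptor members was -1.75. Within each library, the median deviation of the RPE members from their mean over libraries minus that of the photoreceptor members came, on the log2 scale, to -0.83 and -0.93 for FDM 1 and FDM 3, to -0.78 for Control 1, and to 1.36 and 1.09 for Controls 2 and 3. The SD of this value over the controls was 1.17. The libraries thus fell on 2 levels that cut across the groups. Rpe65 stood at 3.56, 3.23 and 3.33 per 1000 counts of Abca4 in FDM 1, FDM 3 and Control 1, and at 20.8 and 16.1 in Control 2 and Control 3, whereas Rdh8 stood between 58.2 and 69.3 per 1000 counts of Abca4 in all 5.

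Libraries with the same number in the count table differed from each other in the same uneven way. Between FDM 1 and Control 1 the log2 difference was 0.04 for Rpe65, -0.22 for Lrat, -0.06 for Rdh5 and -0.23 for Rgr, inside the middle 90% of the 14815 tested genes with a mean of at least 1 CPM, which ran from -0.24 to 0.25. Between FDM 3 and Control 3 it was -2.39 for Rpe65, -2.07 for Lrat, -1.48 for Rdh5 and -2.08 for Rgr, all below the middle 90% of -0.27 to 0.25. The photoreceptor members stayed between -0.16 and 0.12 in both comparisons. Which libraries come from the same mouse was not settled here.

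**Figure D3:**
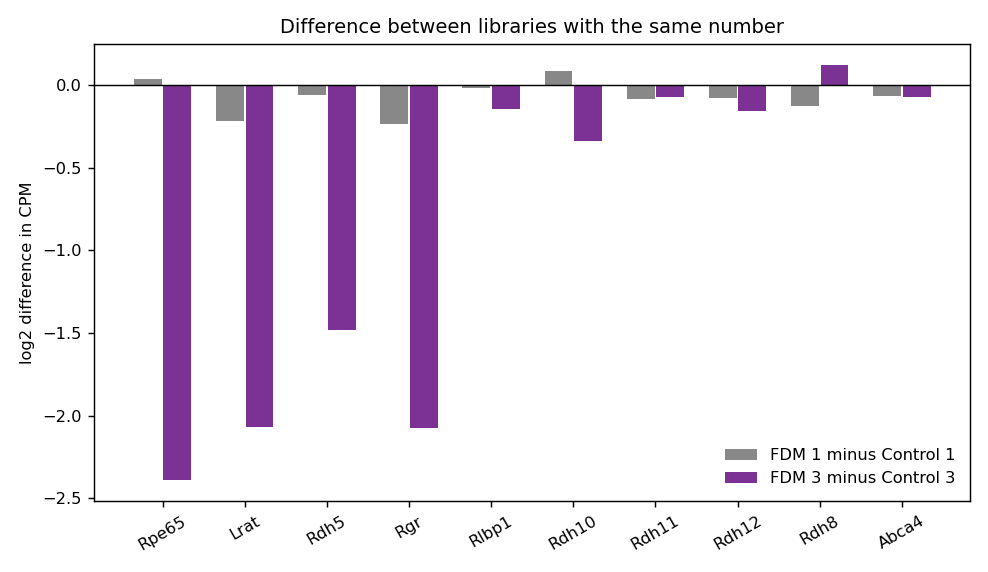
Log2 difference in CPM between the FDM and Control library with the same number in the count table, for number 1 (grey) and number 3 (purple). The grey bars of the RPE members lie between -0.23 and 0.04 and the purple ones between -2.39 and -1.48, while all bars of the photoreceptor members lie near 0.

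Control 1 therefore carried much weight in the comparison of the groups. Without it, the log2 fold changes were -2.37 for Rpe65, -2.44 for Lrat, -1.35 for Rdh5 and -1.94 for Rgr, and all 4 passed adjustment over all genes (adjusted p = 0.00534 for Rpe65 and Rgr, 0.022 for Lrat and 0.0232 for Rdh5 from edgeR), among 12 genes that did. Control 1 was singled out for its low values in these same genes, so leaving it out takes away most of their spread between controls. These adjusted p-values are therefore no independent support for a difference between the groups. The same limit holds for the results without Control 1 that are given for Rdh10 and the RPE markers. Without FDM 3 or without Control 3 the calls of Rpe65 and Rdh5 were lost, with unadjusted p of 0.0536 and 0.06 and of 0.0561 and 0.06 in edgeR, so that 2 of the 4 RPE members were called. The log2 fold changes stayed near those of all libraries, at -1.79 and -1.74 for Rpe65 and -0.93 and -0.90 for Rdh5. With 1 FDM library left, the fit assumes that it varies like the controls.

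The uncovered eyes alone spread widely for the RPE members. The highest control exceeded the lowest 5.82-fold for Lrat, 5.20-fold for Rpe65, 3.01-fold for Rgr and 2.27-fold for Rdh5. A ratio over 4, as for Lrat and Rpe65, was found for 0.534% of the 14796 genes compared. For the photoreceptor members this ratio was 1.11 for Rdh12, 1.20 for Abca4 and 1.28 for Rdh8, near the 1.20 that was the median of all genes with a mean of at least 1 CPM. Control 1 was lower than both other controls by over 2-fold for all 4 RPE members and for 0.675% of such genes, a description chosen after the values had been seen. Between the FDM libraries the ratio was at most 1.22 for every member.

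In levels per length (CPM per kilobase of annotated exon, mean of 5 libraries), Lrat had the lowest mean at 1.40 (range 0.487 to 3.30), followed by Rdh5 at 5.57 (3.05 to 8.75), Rpe65 at 6.92 (2.33 to 14.4), Rgr at 8.27 (3.39 to 14.6) and Rdh10 at 11.3 (9.46 to 14.4). The range of each of these 5 overlapped that of the next, so ranges alone do not order neighbours. The highest library of Lrat, at 3.30, was still below the lowest of Rgr, at 3.39, and that of Rdh5, at 8.75, below the lowest of Rdh10, at 9.46. Library by library, Lrat was the lowest of these 5 and Rgr stood above Rpe65, while Rdh5 and Rpe65 changed places. Rdh11 at 18.6 (15.8 to 20.8) and Rdh8 at 68.5 (60.9 to 77.9) stood apart from their neighbours. Abca4 at 122.5, Rlbp1 at 133.9 and Rdh12 at 137.5 were the highest, with ranges that overlapped. The 4 RPE members had the lowest means of the 10, though Rgr reached above the highest library of Rdh10, and in the FDM mean they stood between 0.50 for Lrat and 3.76 for Rgr.

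Of the wider set of retinoid genes, 20 were listed and 19 passed the filter, of which 3 were called lower and 0 higher in FDM, against 1.16% and 0.453% of all genes, and their median log2 fold change was -0.01. Ttr and Stra6 were among those called lower. Ttr, transthyretin, which carries thyroxine and retinol-binding protein, had 32 and 25.2 CPM in FDM 1 and FDM 3 and 33.8, 116.0 and 92.7 in Control 1, 2 and 3 (log2 fold change -1.50, SE 0.46, unadjusted p = 0.0134, adjusted p = 1.0 from edgeR). Stra6, the cell surface receptor for retinol-binding protein, had 8.47 and 7.82 CPM in FDM 1 and FDM 3 and 9.29, 14.4 and 15.8 in Control 1, 2 and 3 (log2 fold change -0.70, unadjusted p = 0.015, adjusted p = 1.0 from edgeR). In both genes Control 1 was again close to the FDM libraries. Without FDM 3 none (0) of the 19 was called in edgeR at the unadjusted threshold, against 1.12% of all genes, and without Control 3 a single gene (1) was, against 0.838%. Rbp3, the retinoid carrier between photoreceptors and RPE and the highest of the set in CPM at 4977, 4212, 5484, 3615 and 4805 CPM in FDM 1, FDM 3, Control 1, Control 2 and Control 3, had a log2 fold change of -0.01 (unadjusted p = 0.945 from edgeR). Rrh, peropsin, an opsin of the RPE, had 17.5, 17.9, 17.5, 22.7 and 17.5 CPM in the same order and was not called (unadjusted p = 0.4 from edgeR).

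Markers of the RPE that are no retinoid genes were examined beside the RPE members. All 12 had a log2 fold change below 0, with a median of -1.30, where 55.6% of all genes were below 0, and 4 of 12 were called, all lower, against 1.16% of all genes. Kcnj13, a potassium channel, had 0.60 and 0.541 CPM in FDM 1 and FDM 3 and 1.15, 5.61 and 3.73 in Control 1, 2 and 3 (log2 fold change -2.63, unadjusted p = 0.00409, adjusted p = 1.0 from edgeR). Slc16a8, a lactate transporter, had a log2 fold change of -0.92, Krt8, a keratin, of -1.43, and Oca2, a melanosome protein, of -1.19 (unadjusted p = 0.0242, 0.0333 and 0.0191 from edgeR). Krt18, the highest of the set in CPM, had 42.7, 46.4, 48.3, 42 and 54.0 CPM in FDM 1, FDM 3, Control 1, Control 2 and Control 3 (unadjusted p = 0.38 from edgeR), and Best1, a chloride channel of the RPE, was at 0.457 to 0.737 CPM. The 12 markers summed to 69.8 and 78.1 CPM in FDM and to 72.9, 104.7 and 204.6 CPM in Control 1, 2 and 3, and none was at 0 in every library. Krt18 made up a large part of each sum. Without it and the pigment genes, a split made after the values had been seen, 4 markers remained. They summed to 6.5 and 5.4 CPM in FDM 1 and FDM 3 and to 6.8, 18.4 and 16.4 in Control 1, 2 and 3. The part of the 12 markers in the difference of the RPE members was not tested. The count called was 1 of 12 without FDM 3 or without Control 3, where 1.12% and 0.838% of all genes were called, and 9 of 12 without Control 1, where 5.42% were.

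The pigment genes among these markers (Mlana, Tyr, Tyrp1, Dct, Pmel, Slc45a2 and Oca2) summed to a higher level in Control 3 than in Control 2. This subset was formed after its values had been seen. The 7 genes summed to 20.7 and 26.3 CPM for FDM 1 and FDM 3 and to 17.8, 44.3 and 134.3 for Controls 1 to 3, so that Control 3 exceeded Control 2 by 3.04-fold. Dct made up 76.9 of the 134.3 CPM, and the ratio was 4.76 for Mlana, 4.11 for Dct, 3.29 for Pmel and 2.66 for Tyrp1 but 1.44 for Slc45a2, 1.28 for Tyr and 1.19 for Oca2, where Krt8, no pigment gene, had 1.31. For the RPE members the ratio of Control 3 to Control 2 was 0.848 for Rpe65, 0.652 for Lrat, 0.973 for Rdh5 and 0.978 for Rgr. Per 100 counts of Dct, which encodes an enzyme of melanin synthesis, there were 148.9 counts of Rpe65 in Control 2 and 30.7 in Control 3, with 70.4, 39.7 and 73.0 in FDM 1, FDM 3 and Control 1. Melanocytes of the choroid also use these pigment genes. Against Kcnj13, Rpe65 was more even, with 915.4, 834.6, 465.2, 496.6 and 634.5 counts per 100 of Kcnj13 in FDM 1, FDM 3, Control 1, Control 2 and Control 3. In this ratio Control 1 lay with the other controls, below FDM 1 and FDM 3. The highest library exceeded the lowest 1.97-fold for Rpe65, 1.93-fold for Lrat, 2.65-fold for Rgr and 3.96-fold for Rdh5. Per count of Dct it did so 4.84-fold, 6.31-fold, 4.2-fold and 4.76-fold in the same order.

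**Figure D4:**
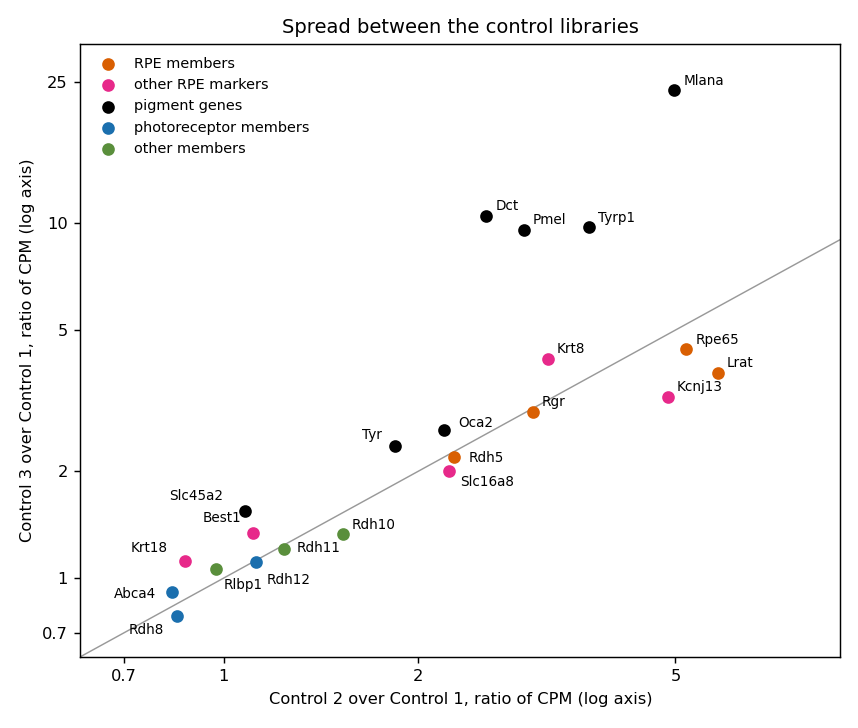
Ratio of Control 3 to Control 1 against the ratio of Control 2 to Control 1, in CPM on log axes, for the visual cycle genes and the RPE markers, with the line of equal ratios. The RPE members lie near or below the line, with Rpe65 at 5.20 and 4.41, and Dct, Pmel, Tyrp1 and Mlana lie above it, while the photoreceptor members lie near 1 on both axes.

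Other cell types were checked in the same way. The 16 photoreceptor markers, 0 of which were called, summed to 72230 and 66800 CPM in FDM and to 76460, 61040 and 72380 in Control 1, 2 and 3, and like Abca4 they were highest in Control 1 and lowest in Control 2. The 7 Müller glia markers summed to between 3656 and 3923 CPM in all 5 libraries, and 0 of 7 were called. With 1.61% of all genes called, lists this short would seldom hold a called gene. FDM 3 stood apart by 7 lens markers, at 1958 CPM against 2.45 in FDM 1 and 2.38 to 17.9 in Control, and Control 3 by 6 skeletal muscle markers, at 55.2 CPM against 6.36 to 7.80 in the others. The 6 markers of choroid and stroma summed to 8.28 and 14.4 CPM in FDM and to 10.2, 20.5 and 30.8 in Control 1, 2 and 3. The 5 blood markers lay between 33.0 and 47.6 CPM. Their part in the results was not tested.

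The genes whose pattern over the 5 libraries was most like that of Rpe65 were looked for among 14789 genes, by the root mean square difference of centred log2 CPM. Outside the members these were Cldn1 (0.20), Ptgds (0.22), Slc6a13 (0.24), Ttr (0.27) and Dio2 (0.29). Ptgds, a prostaglandin D synthase, had 49.0 and 51.1 CPM in FDM 1 and FDM 3 and 55.8, 208.8 and 193.6 in Control 1, 2 and 3. Cldn1, a tight junction claudin, had 0.969, 1.02, 1.05, 5.84 and 3.62 CPM in the same order. Among the members Lrat was nearest to Rpe65 at 0.17, then Rgr at 0.28 and Rdh5 at 0.51, while Rdh10, the next, was at 0.92 and Rdh8 the farthest at 1.23. Lrat and Rgr thus followed Rpe65 closely, and Rdh5 did so with a smaller amplitude.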

How the data were processed

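The study sequenced polyA RNA of mouse retina, trimmed reads with Trimmomatic 0.39 and quantified transcripts with Salmon 1.10.1 (R 4.3.1, builds GRCm38 and mm10 in the submitters' processing notes). The authors deposited estimated counts per gene as whole numbers, and also a signal of counts normalized in DESeq2, whose factors differ between genes of one library. The test on these counts was that of edgeR 4.0.16 under R 4.3.3, over the 17432 of 33636 genes that exceeded 10 counts in 2 or more libraries (TMM, quasi-likelihood, two-sided, no covariate), with p-values adjusted over all of them by Benjamini-Hochberg. Standard errors are the log2 fold change over the square root of F, and 95% intervals use the total degrees of freedom of edgeR. DESeq2 1.42.0 and limma 3.58.1 on log2 of the normalized signal plus a pseudocount of 1 or 0.1 were alternatives. The scripts were tested on simulated data.

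Totals ran from 40599047 to 56534931 counts per library, so that 3 counts, taken as the lowest detected, lay between 0.0526 and 0.0751 CPM (counting error only). Coordinates, exon lengths and 33585 matched identifiers are from GENCODE M21 (GRCm38), promoters from RefSeq. The TruSeq v2 kit does not mark strand. The number of the second FDM library is 3 in the count table and 2 in the sample label. The labels and the text read here do not say which libraries come from the same mouse. The study's plot of its samples was not used for this. Nor were the refractive errors and the study's mean difference between the eyes of a mouse, so the samples were not paired.

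The members and the gene lists were chosen with earlier results of these data known. Named are all members, every wider retinoid gene and RPE marker past the threshold with the most abundant one that is not, the 5 genes most like Rpe65, and, after their values were seen, Rrh, Best1, Bloc1s1, Dct and the pigment subset. Of the lens list, Lim2 was not used here. A gene of the wider retinoid set that passed the threshold is not reported here.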

Additional observations from a re-analysis of the deposited data

How the results depend on the processing

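The alternatives were the DESeq2 Wald test, RLE factors, DESeq2 with the authors' factors, all genes with at least 1 count, over 10 counts in all 5 libraries, limma with either pseudocount, the replicate block with each numbering, and each library left out. All of them kept the 4 RPE members below 0. The settings called from 0.838% (without Control 3) to 7.23% (block by the count table) of all genes, so equal counts are not equal support. The number of RPE members called was 4 in each, except 2 without FDM 3 or Control 3 (range 2 to 4 with a library left out). The difference of the medians, -1.75, ranged from -2.22 to -1.34 with a library left out and was -1.17 and -1.22 with the replicate block. The number of photoreceptor members called was 0, except 1 (Rdh12) with the block of the count table's numbers. Some settings called photoreceptor markers. Of the 16, the DESeq2 Wald test called 1, as higher, and that block called 1 as higher and 4 as lower, where 0.987% and 7.23% of all genes were called. Genes called over the whole table, 281 here, were 172 in DESeq2, 498 with all genes of at least 1 count, 1261 and 439 with the replicate block by the count table and by the sample labels, and 146 to 944 with a library left out. Whether either numbering pairs the eyes of a mouse was not settled here. The refractive errors were not compared with the study's mean difference between the eyes, which could bear on this. Deviations from the group means correlated across genes at 0.258 for FDM 1 with Control 1, 0.125 for FDM 3 with Control 3 and 0.155 for FDM 3 with Control 2. The deviations of the 2 FDM libraries mirror each other, so FDM 3 with Control 1 was at -0.258, and those of the controls sum to 0. These correlations are therefore not independent and cannot decide which eyes pair. With the block, edgeR gave the RPE members adjusted p of 0.41 to 0.561 by the count table and 3.61e-08 to 0.000241 by the sample labels. Each numbering left 1 residual degree of freedom. These p-values hold only for a numbering that pairs the eyes of a mouse, so the 2 sets are not equal alternatives and neither is relied on. Rdh12 had an unadjusted p of 0.0481 in edgeR with the count table's numbers. Of the 12 RPE markers, the block called 8 with those numbers and 5 with the sample labels, against 7.23% and 2.52% of all genes. Their median log2 fold change was -1.09 and -0.31 in that order, against -1.30 without the block.

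Of the single-gene values, only ones near 0 changed sign. Abca4 was 0.003 in DESeq2 and with RLE factors, 0.022 with the authors' factors, 0.027 in limma with either pseudocount, and from -0.075 to 0.066 with a library left out (above 0 without FDM 3, Control 1 or Control 3). Rdh8 was -0.001 and -0.059 with the replicate block by the count table and by the sample labels, and from -0.057 to 0.119 with a library left out (below 0 without FDM 1 or Control 3). Rdh11 ran from -0.285 to 0.001 (above 0 without FDM 1). Of 140 such values, 121 kept direction and side of the threshold. The cause of each change was not tested. With 3 counts as the lowest detected, every member lay above the depth limit in each library, and the groups of 2 and 3 libraries limit the precision.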
